A study of Mus musculus with 6 samples.

Results

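The platelet-derived growth factor (PDGF) system is described here through its 6 genes, the ligand genes *Pdgfa*, *Pdgfb*, *Pdgfc* and *Pdgfd* and the receptor genes *Pdgfra* and *Pdgfrb*. They were chosen by gene symbol, with earlier results of these data known but by a rule that uses no measured value, and 6 of the 6 were present among the 15280 genes of the RNA-Seq table. The data came from 6 libraries of 3 parous female BK5.ATF3 mice, a transgenic line in which the transcription factor ATF3 is overexpressed from the bovine keratin 5 promoter, which is active in basal epithelial cells of the mammary gland. The tumor group consisted of 1 mammary tumor from each mouse (T11035, T11640 and T9232), and the normal gland group of the adjacent mammary gland of the same mice (M11035, M11640 and M9232). All 6 samples carried the transgene, and no wild-type tissue was compared. Where 3 values of a tissue are given without library names, they are in the order M11035, M11640 and M9232 or T11035, T11640 and T9232. The females had raised 1 litter, tumors in this line arose at 6 to 12 months of age, and mice were sacrificed when a tumor reached 1.5 cm. The age of each mouse is not given in the sources used here.

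PDGF ligands are secreted dimers that bind receptor tyrosine kinases on mesenchymal cells, including fibroblasts, pericytes and smooth muscle cells. PDGF-A and PDGF-B are processed inside the cell by furin-like proprotein convertases, whereas PDGF-C and PDGF-D are secreted as latent forms whose CUB domain has to be cut off by extracellular proteases. PDGF receptor α (*Pdgfra*) responds to PDGF-A, PDGF-B and PDGF-C, and PDGF receptor β (*Pdgfrb*) mainly to PDGF-B and PDGF-D. In mammary tissue, *Pdgfra* is typical of fibroblasts and adipocyte progenitors, and *Pdgfrb* of pericytes and fibroblasts, while the ligands are made by epithelial, endothelial and other cells.

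Whole-tissue RNA was measured, and the values are CPM, the fragments on a gene scaled to the size of its library. Libraries held 4750989 to 7806908 fragments on genes, so that 3 fragments correspond to 0.393 to 0.610 CPM. A gene was called differentially expressed at a Benjamini-Hochberg adjusted p of at most 0.05 over all genes and a change of at least 2-fold, with limma on log2(CPM + 0.5), and log2 fold changes are tumor minus gland, with their standard error (SE). Glands M11035 and M11640 stood apart in holding skeletal muscle transcripts. The summed level of 4 muscle markers was 3549 CPM in M11035 and 1384 CPM in M11640, against 2.87 CPM in M9232 and 6.42 to 12.4 CPM in the tumors. The log2 fold changes of the 6 genes were therefore also computed with M9232 as the lone gland, where it was assumed to vary like the tumors.

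Of the 6 genes, the ligand gene *Pdgfa* and the receptor gene *Pdgfrb* rose in the tumors, by 3.69-fold and 2.98-fold of the means. The other 4, *Pdgfb*, *Pdgfc*, *Pdgfd* and *Pdgfra*, did not pass the test, and 0 of the 6 were called lower by limma, edgeR or DESeq2 (0 were lower at an unadjusted p under 0.05). Among all 15280 genes, 28.2% were called in either direction, 14.5% higher and 13.7% lower in the tumors. The 3 tumors lay apart from the 3 glands for 3 of the 6 genes, all with higher tumors (*Pdgfa*, *Pdgfb* and *Pdgfrb*), against 54.0% of all genes in either direction. Both counts over so few genes are near these backgrounds, and so say nothing particular to the PDGF genes. The median log2 fold change of the 6 genes was 0.56.

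**Figure D1:**
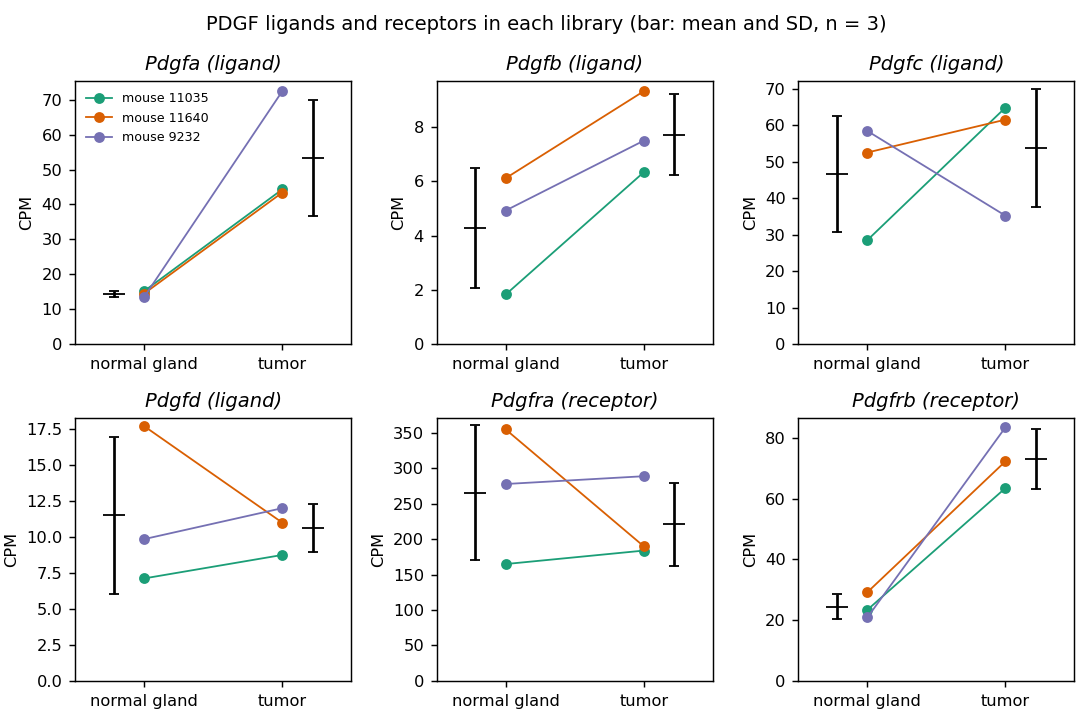
CPM (y axes, linear, from 0) of each PDGF gene in the normal gland and the tumor, with lines joining the samples of a mouse and black bars for the mean and SD of 3 mice. *Pdgfa*, *Pdgfb* and *Pdgfrb* lay higher in the tumor of every mouse, whereas the lines of *Pdgfc*, *Pdgfd* and *Pdgfra* run in both directions.

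**Figure D2:**
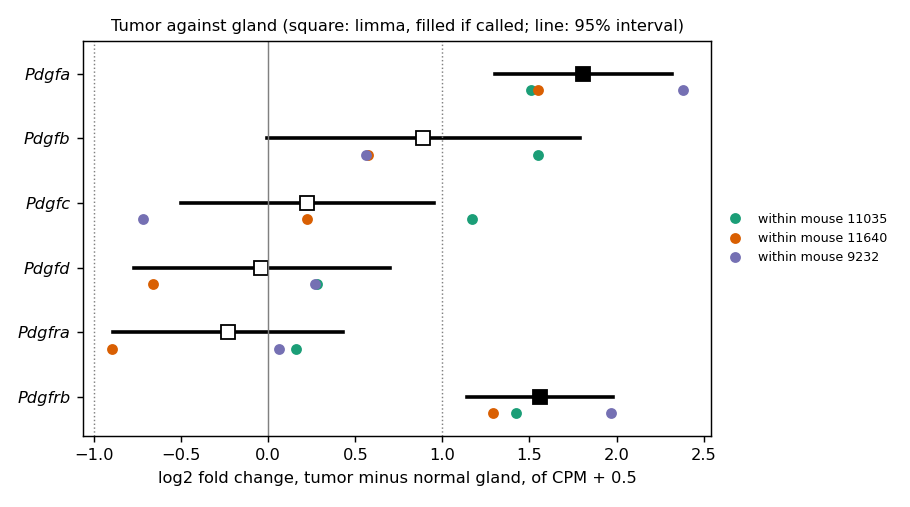
Log2 fold change (tumor minus gland) of each PDGF gene with its 95% confidence interval from limma, with filled squares for called genes, above points for the difference within each mouse. Dotted lines mark the 2-fold threshold. The intervals of *Pdgfa* (1.30 to 2.32) and *Pdgfrb* (1.14 to 1.98) lay above 1, and those of the other 4 genes included 0.

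*Pdgfa* encodes the A chain, the ligand that signals through the α receptor alone. The glands held 15.2 CPM (M11035), 14.5 CPM (M11640) and 13.5 CPM (M9232), and the tumors 44.3 CPM (T11035), 43.4 CPM (T11640) and 72.4 CPM (T9232). The glands lay close together and every tumor was above every gland, with T9232 well above the other two tumors. The mean rose from 14.4 ± 0.857 to 53.3 ± 16.5 CPM (SD, n = 3), a log2 fold change of 1.81 (SE 0.22, limma adjusted p = 0.000342). Against the gland of the same mouse, the log2 difference was 1.51 for T11035, 1.55 for T11640 and 2.38 for T9232. With M9232 as the lone gland, the log2 fold change was 1.90 (adjusted p = 0.0173). These values rest on 75 to 99 fragments per gland and 238 to 483 per tumor. In the mm9 annotation, *Pdgfa* spans chr5:139451968-139473324 on the minus strand, and its longest coding transcript has 2060 bp in 6 exons. Its exons overlap those of the gene *6330403L08Rik*, which is not among the genes tested, and the strand setting of the counting is not given in the sources used here, so reads of the pair cannot be told apart.

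Upstream sequences are shown for *Pdgfa*, the ligand gene that rose, and for *Pdgfra*, the gene of the receptor that PDGF-A binds, which did not pass the test. They are the 250 bases before a RefSeq start site, 5′ to 3′ along the gene, from GRCm38.p6, a later build than the mm9 used for the counts. The *Pdgfa* stretch lies at chr5:138994945-138995194 on the minus strand, and that of *Pdgfra* at chr5:75152001-75152250 on the plus strand. Capitals mark the GC box, the letters GGGCGG on either strand, a motif that Sp1 family factors bind.
Pdgfa: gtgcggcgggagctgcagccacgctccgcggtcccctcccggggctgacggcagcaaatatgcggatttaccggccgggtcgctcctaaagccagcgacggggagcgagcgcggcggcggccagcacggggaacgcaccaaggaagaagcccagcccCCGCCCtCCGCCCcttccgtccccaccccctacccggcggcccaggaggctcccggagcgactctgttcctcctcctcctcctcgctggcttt
Pdgfra: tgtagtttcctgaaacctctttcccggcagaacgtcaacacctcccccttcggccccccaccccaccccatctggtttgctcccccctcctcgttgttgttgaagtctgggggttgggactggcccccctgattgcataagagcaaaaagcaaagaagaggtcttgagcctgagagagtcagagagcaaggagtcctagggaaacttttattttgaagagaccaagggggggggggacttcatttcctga
The *Pdgfa* stretch holds 2 GC boxes, which begin at 93 and 86 bases before the start site, and that of *Pdgfra* holds 0. A second *Pdgfa* start site in RefSeq has 1 GC box, 60 bases upstream. Over windows that include 50 bases after the start, 35.7% of 32841 mouse promoters hold the motif, so its presence is common. The GC content of the window was 73.3% for the *Pdgfa* site shown, 67.0% for the other *Pdgfa* site and 51.0% for *Pdgfra*, against a median of 52.7% over all promoters. Windows were matched for 4 of the 6 genes, 5 windows in all, and *Pdgfb* and *Pdgfrb* had no entry. On either strand, the AP-1 motif TGANTCA, the site of Fos and Jun dimers, was in 0 of the 5 windows and 7.81% of all promoters. The cAMP response element TGACGTCA, a motif known for CREB and ATF factors, was also in 0 of the 5, against 1.79% of all, and the EGR motif GCGTGGGCG in 0 of the 5, against 0.612%. The CArG box of serum response factor, searched by its consensus, was found once, in the *Pdgfc* window (1.63% of all), and the letters TATAAA once, in the *Pdgfd* window (13.6% of all). Such matches describe letters in a window and not bound sites.

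*Pdgfb*, the gene for the B chain that binds both receptors and that endothelial cells use to recruit pericytes, had the lowest mean level per length of transcript in both tissues. Its values were 1.83 CPM (M11035), 6.11 CPM (M11640) and 4.92 CPM (M9232) in the glands and 6.33 CPM (T11035), 9.31 CPM (T11640) and 7.49 CPM (T9232) in the tumors. The groups did not overlap, although the lowest tumor was only just above the highest gland, and M11035 was far below the other glands. The means were 4.29 ± 2.21 and 7.71 ± 1.50 CPM (SD, n = 3), with a log2 fold change of 0.89 (SE 0.39, limma adjusted p = 0.103) and a 95% confidence interval from 0.995-fold to 3.46-fold. The difference was 1.55 for T11035, 0.57 for T11640 and 0.56 for T9232 on the log2 scale, each against the gland of its mouse, and so was higher in the tumor of 3 of 3 mice. With mouse as a replicate block, the log2 fold change stayed at 0.89 and the limma adjusted p was 0.0503, which is still above the threshold. Gland M11035 held 9 fragments of *Pdgfb*, for which counting error alone allows 0.837 to 3.47 CPM (exact Poisson 95% interval). Without this library the log2 fold change was 0.44 (limma adjusted p = 0.24), and with M9232 as the lone gland it was 0.58 (limma adjusted p = 0.276). *Pdgfb* lies at chr15:79826330-79845238 (mm9, minus strand), with 2918 bp in 7 exons.

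*Pdgfc* and *Pdgfd* encode the ligands with a CUB domain, of which PDGF-C acts on the α receptor and PDGF-D on the β receptor. For *Pdgfc*, the glands held 28.5 CPM (M11035), 52.5 CPM (M11640) and 58.4 CPM (M9232), and the tumors 64.8 CPM (T11035), 61.5 CPM (T11640) and 35.2 CPM (T9232). The groups overlapped, and the mice moved in different directions, with a log2 difference to the paired gland of 1.17 for T11035, 0.22 for T11640 and -0.72 for T9232. T9232, the tumor with the highest *Pdgfa*, was the one with the lowest *Pdgfc*. The log2 fold change was 0.22 (SE 0.32, limma adjusted p = 0.607), and the 95% interval of the difference ran from 0.705-fold to 1.94-fold. Its sign turned without gland M11035 (-0.09) and with M9232 as the lone gland (-0.17). For *Pdgfd*, the values were 7.12 CPM (M11035), 17.7 CPM (M11640) and 9.85 CPM (M9232) in the glands and 8.75 CPM (T11035), 11 CPM (T11640) and 12 CPM (T9232) in the tumors. Gland M11640 was above all other samples, and the tumors lay between the glands. The log2 fold change was -0.04 (SE 0.32, limma adjusted p = 0.941), with a 95% interval from 0.586-fold to 1.62-fold. Changes of either sign within these bounds thus remained compatible with the values of the 3 mice. Without M11640 it was 0.31, without T11035 0.09, and with M9232 as the lone gland 0.09, none of which passed the test. In mm9, *Pdgfc* spans chr3:80840338-81017962 on the plus strand (3521 bp in 6 exons), where it overlaps *Gm16000*, which is not among the genes tested. *Pdgfd* spans chr9:6168612-6378843 on the plus strand (3052 bp in 7 exons).

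*Pdgfra*, the α receptor gene, had the highest mean level per length of transcript of the 6 in both tissues. Its values were 165 CPM (M11035), 355 CPM (M11640) and 278 CPM (M9232) in the glands and 184 CPM (T11035), 190 CPM (T11640) and 289 CPM (T9232) in the tumors. The tumors all lay within the range of the glands, which spread widely between M11035 and M11640. The means were 266 ± 95.6 and 221 ± 58.8 CPM (SD, n = 3), and the log2 fold change was -0.23 (SE 0.29, limma adjusted p = 0.561), with a 95% interval from 0.541-fold to 1.35-fold. Neither a 2-fold fall nor a 2-fold rise lies in that interval. Within mice, the log2 difference was 0.16 for T11035, -0.90 for T11640 and 0.06 for T9232. Without gland M11640 the log2 fold change was 0.01, and without M11035 it was -0.54, with a limma adjusted p of 0.973 and 0.103, respectively. With M9232 as the lone gland it was -0.36 (limma adjusted p = 0.435). *Pdgfra* lies at chr5:75548316-75594229 (mm9, plus strand), with 6570 bp in 23 exons.

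*Pdgfrb*, the β receptor gene, rose in each mouse. The glands held 23.4 CPM (M11035), 29.2 CPM (M11640) and 20.9 CPM (M9232), and the tumors 63.5 CPM (T11035), 72.3 CPM (T11640) and 83.5 CPM (T9232). The lowest tumor was more than 2-fold above the highest gland, and the spread within each tissue was small. The mean rose from 24.5 ± 4.27 to 73.1 ± 10 CPM (SD, n = 3), with a log2 fold change of 1.56 (SE 0.19, limma adjusted p = 0.000273). The log2 difference within mice was 1.42 for T11035, 1.29 for T11640 and 1.97 for T9232. With M9232 as the lone gland the log2 fold change was 1.77 (limma adjusted p = 0.00604). Between 115 and 177 fragments per gland and 341 to 557 per tumor were counted. Since the RNA was from whole tissue, more cells that express a gene and more of its RNA per cell cannot be told apart, for this and for the other genes. *Pdgfrb* lies at chr18:61204804-61244715 (mm9, plus strand), with 5423 bp in 24 exons.

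The balance between the receptor genes was examined directly, as the ratio of *Pdgfra* to *Pdgfrb* CPM in a library, which is not affected by library scaling. The ratio was 7.06 in M11035, 12.1 in M11640 and 13.3 in M9232, against 2.90 in T11035, 2.63 in T11640 and 3.46 in T9232. Every tumor was below every gland. The log2 ratio of CPM + 0.5 differed by -1.79 between tumors and glands, with a two-sided exact permutation p of 0.1, the smallest that 3 against 3 libraries allow, so that this test could not reach 0.05. The same difference, tested by flipping signs within the paired mice, had an exact p of 0.25, again the smallest possible with 3 pairs. Of the 2 ligand ratios computed alongside, that of *Pdgfa* to *Pdgfb* was 8.33, 2.38 and 2.75 in the glands and 7, 4.66 and 9.66 in the tumors (log2 difference 0.92, exact permutation p = 0.3). The groups overlapped through gland M11035, the library with 9 *Pdgfb* fragments. For *Pdgfc* to *Pdgfd*, the log2 difference was 0.26 (exact permutation p = 0.8). Adjusted by the Benjamini-Hochberg method over the 3 ratios, the exact p were 0.3, 0.45 and 0.8.

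Levels of different genes were compared per kilobase (kb) of the longest coding transcript. In the glands the order, in mean CPM per kb with SD over 3 mice, was *Pdgfra* (40.5 ± 14.5), *Pdgfc* (13.2 ± 4.51), *Pdgfa* (7.01 ± 0.416), *Pdgfrb* (4.52 ± 0.787), *Pdgfd* (3.78 ± 1.80) and *Pdgfb* (1.47 ± 0.758). Of neighbors in this order, only *Pdgfrb* and *Pdgfd* had overlapping ranges. In the tumors the order was *Pdgfra* (33.7 ± 8.95), *Pdgfa* (25.9 ± 8), *Pdgfc* (15.3 ± 4.60), *Pdgfrb* (13.5 ± 1.85), *Pdgfd* (3.47 ± 0.545) and *Pdgfb* (2.64 ± 0.514). Here the ranges of *Pdgfra* and *Pdgfa*, of *Pdgfc* and *Pdgfrb*, and of *Pdgfd* and *Pdgfb* overlapped. *Pdgfa* thus stood below *Pdgfc* in the glands and above it in the tumors. When the union of all annotated exons was used as the length, *Pdgfrb* (13.3 CPM per kb) preceded *Pdgfc* (10.6 CPM per kb) in the tumors.

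On the same per-kb scale, the make-up of the ligand pool differed between the tissues. The 4 ligand genes summed to 18.4 (M11035), 29.8 (M11640) and 28.1 (M9232) CPM per kb in the glands and to 44.9 (T11035), 45.4 (T11640) and 51.6 (T9232) in the tumors. *Pdgfa* made up 40.1, 23.7 and 23.4% of this sum in the glands, and 47.8, 46.5 and 68.0% in the tumors. *Pdgfc* was the leading ligand transcript in each gland, with 43.8 to 59.1%, and *Pdgfa* in each tumor. The sum of both receptor genes spanned 29.4 to 59.5 CPM per kb in the glands and 39.7 to 59.4 in the tumors, and so overlapped. Within it, *Pdgfrb* accounted for 8.36 to 14.7% in the glands and 25.9 to 31.4% in the tumors. The ligand sum was 50.2 to 62.7% of the receptor sum in the glands and 86.9 to 113% in the tumors. This percentage depends on the length used. With the exon union, tumor means were 17.1 (*Pdgfa*) and 10.6 (*Pdgfc*) CPM per kb, against 32.8 (*Pdgfra*) and 13.3 (*Pdgfrb*). By that length the percentage is lower, and the ligand sum stays below the receptor sum in each tumor. These shares restate the levels given above, are of transcripts and not of protein, and were not tested.

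**Figure D3:**
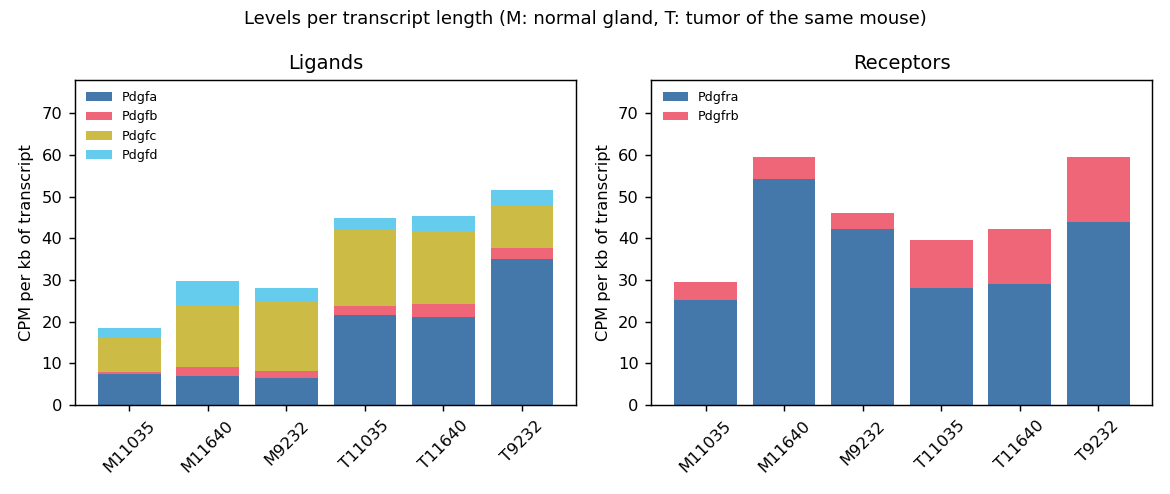
CPM per kb of the longest coding transcript (y axes, linear, from 0) in each library, stacked by ligand gene (left panel) and by receptor gene (right panel). The ligand bars reached 18.4 to 29.8 in the glands and 44.9 to 51.6 in the tumors, with *Pdgfa* as the largest segment of each tumor, while the receptor bars of the tissues overlapped.

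The genes whose profile over the 6 libraries was nearest to that of each PDGF gene were found by the root mean square (RMS) difference in log2(CPM + 0.5), after centering each gene on its mean, among 14711 genes that averaged 1 CPM or more. For *Pdgfa* these were *Fbxl19* (RMS 0.103), *Zmat3* (0.143) and *Enc1* (0.153), where the median gene was at 0.994. *Pdgfrb* was nearest to *Erbb2* (0.0445), the receptor tyrosine kinase gene also called *Her2*, followed by *Pqlc1* (0.0886) and *Calu* (0.0965), with a median of 0.875. The nearest genes to *Pdgfb* were *Plxdc2* (0.0997), *Fam114a1* (0.119) and *Cyp1b1* (0.146), all low in gland M11035. The nearest profiles of the genes whose tissues overlapped were *Gm20125* (0.101), *Gpr125* (0.128) and *Gm5148* (0.128) for *Pdgfc*, *Mir32* (0.0701, a gene near 1 CPM), *Glce* (0.113) and *Zfp449* (0.114) for *Pdgfd*, and *Ppm1f* (0.0982), *Gda* (0.105) and *Zfp524* (0.114) for *Pdgfra*. With 6 libraries in 2 tissues, such likeness is a description, and no PDGF gene was among the nearest 3 of another.

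The proteases and partners that release, bind or clear PDGF ligands were examined next. Of 11 such genes, 7 rose, 1 fell and 3 did not pass the test, where 14.5% of all genes were called higher and 13.7% lower. Their median log2 fold change was 1.76, against -0.00276 over all genes. By edgeR and DESeq2, 8 of the 11 rose and 1 fell, and by limma 5 rose without T9232 and 6 without M11035. *Sparc*, a matrix protein that binds PDGF-B, rose from 790 ± 479 to 3990 ± 716 CPM (log2 fold change 2.48, SE 0.36, limma adjusted p = 0.000796). Its glands held 566, 1340 and 464 CPM and its tumors 3170, 4280 and 4510 CPM, with no overlap. The gene that fell was *Pcsk6*, a proprotein convertase, from 13.2 ± 5.6 to 5.21 ± 1.98 CPM (log2 fold change -1.26, SE 0.37, limma adjusted p = 0.0243), and it was not called without M11640, without T11035, without T11640 or with M9232 as the lone gland. Several others were picked for their role once their values were known. *Plat*, the tissue plasminogen activator that cuts PDGF-C, rose from 10.9 ± 8.42 to 32.1 ± 5.31 CPM (limma adjusted p = 0.0139). *Plau* and *St14*, proteases that can cut PDGF-D, rose from 29.4 ± 12.7 to 128 ± 30.5 CPM and from 10.8 ± 5.55 to 38.4 ± 13.3 CPM. So did *Lrp1*, a coreceptor that binds PDGF-B and the β receptor, from 168 ± 47.8 to 370 ± 84.7 CPM. *Furin*, a convertase that cuts the A and B chains, had an adjusted p of 0.00334 by limma but a log2 fold change of 0.98, just short of the 2-fold threshold. *Nrp1*, a coreceptor, was at 174 ± 46.5 and 127 ± 23.2 CPM and did not pass the test.

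Genes that act below the receptors were examined in the same way. Of 33 genes for adaptors, kinases and effectors of PDGF receptor signaling (*Hras* was not matched), 0 rose and 4 fell by limma, edgeR and DESeq2 alike, where 13.7% of all genes were called lower, and the median log2 fold change was 0.12. At an unadjusted p under 0.05, without the 2-fold threshold, 6 were higher and 6 lower by limma. *Pik3r1*, the regulatory subunit of PI3 kinase that docks on the activated receptors, held 716, 830 and 747 CPM in the glands and 232, 191 and 149 CPM in the tumors. It fell by 2.02 on the log2 scale (SE 0.18, limma adjusted p = 5.2e-05). *Stat5a*, a transcription factor best known in this tissue for prolactin signaling, fell from 30.1 ± 2.48 to 7.96 ± 2.10 CPM (log2 fold change -1.88, SE 0.23). Among 16 attenuators of receptor tyrosine kinase signaling, 4 rose and 0 fell by limma, where 14.5% of all genes were called higher and 13.7% lower. Their median was 0.36, and 3 rose and 0 fell by edgeR and DESeq2. Only 1 was lower at an unadjusted p under 0.05. *Spry1*, a Sprouty inhibitor of the Ras pathway, rose from 4.23 ± 0.737 to 13.3 ± 2.97 CPM, and *Dusp6*, a phosphatase of ERK, from 31.9 ± 5.05 to 72.6 ± 3.69 CPM. Without gland M11035, 2 of the attenuators were called.

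Early response genes, which growth factors switch on within minutes to hours, showed 6 of 14 higher and 0 lower by limma, edgeR and DESeq2 (*Fosl1* was not matched). Of all genes, limma called 14.5% higher and 13.7% lower. The early response genes had a median log2 fold change of 1.14. By limma, 0 were lower at an unadjusted p under 0.05. The 2 that rose most were *Ier3*, a regulator of cell survival, at 7.12, 3.8 and 5.2 CPM in the glands and 29.8, 30.7 and 67.6 CPM in the tumors, and *Cyr61*, a matricellular protein gene, which rose from 13.5 ± 6.62 to 70.6 ± 14.0 CPM. Their log2 fold changes were 2.81 (SE 0.35) and 2.42 (SE 0.32). The count was 3 without gland M11640 and 3 with M9232 as the lone gland. These genes respond to many growth factors, to stress and to tissue handling, and whether PDGF signaling had a part in their levels was not tested.

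Relatives of the PDGF family comprise the VEGF ligands and receptors and the class III receptors *Kit*, *Csf1r* and *Flt3* with their ligands. Of these 15 genes, 1 rose, 7 fell and 7 did not pass the test, where 14.5% of all genes were called higher and 13.7% lower. Their median log2 fold change was -0.61. *Pgf*, the placental growth factor gene, rose from 0.752 ± 0.123 to 7.19 ± 2.13 CPM (log2 fold change 2.58, SE 0.31, limma adjusted p = 0.000302). *Flt3*, a receptor of hematopoietic progenitors and dendritic cells, fell from 8.88 ± 2.61 to 1.33 ± 0.749 CPM, and *Figf*, which encodes VEGF-D, from 18.8 ± 9.89 to 4.70 ± 3.67 CPM. *Kit* also fell, from 79.7 ± 21.8 to 32.8 ± 11.3 CPM, as did its ligand gene *Kitl*, from 221 ± 82.3 to 76.2 ± 7.19 CPM. Both were picked with values known, *Kit* as close kin of the PDGF receptors and *Kitl* for the ligand of *Kit*. Gene *Csf1r*, for the macrophage receptor of the same class, was at 73.5 ± 37.3 and 82.0 ± 23.2 CPM and did not pass the test (limma adjusted p = 0.627). With M9232 as the lone gland, 4 of the relatives were called lower.

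**Figure D4:**
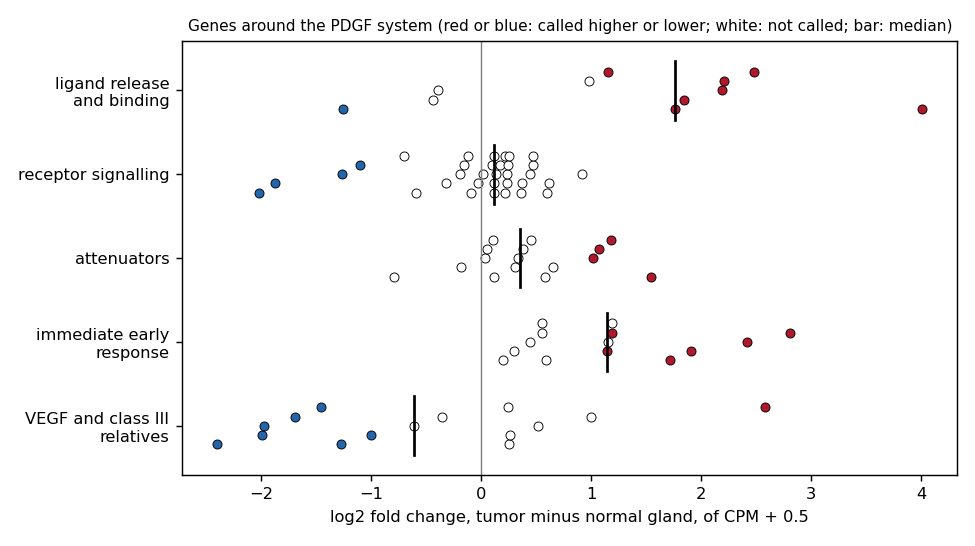
Log2 fold change (tumor minus gland) of each gene in the 5 lists around the PDGF genes, each point 1 gene, in red or blue where limma called it higher or lower and in white otherwise, with a bar at the median of each list. The medians were 1.76 for ligand processing, 0.12 for signaling, 0.36 for attenuators, 1.14 for early response genes and -0.61 for relatives.

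Markers of the cells that carry or make PDGF components also differed between the tissues. Their counts stand against all genes, of which limma called 14.5% higher and 13.7% lower. Of 13 fibroblast markers, 6 rose and 1 fell, and their summed level was 975 (M11035), 4292 (M11640) and 1796 CPM (M9232) in the glands and 8533 (T11035), 9279 (T11640) and 8851 CPM (T9232) in the tumors. *Col1a1*, a chain of type I collagen, rose from 72.8 ± 43.5 to 1640 ± 81.9 CPM, while *Dcn*, the decorin gene, was at 248, 1260 and 656 CPM in these glands and 625, 529 and 739 CPM in these tumors and did not pass the test. In the tumors, *Col1a1*, *Col1a2* (2950, 3040 and 2750 CPM) and *Col3a1* (2920, 3440 and 2750 CPM) made up most of the fibroblast sum. *Lum*, *Pi16*, *Dpp4*, *Fap* and *Thy1* did not pass the test either, and *Dpt* fell (log2 fold change -2.70). Of 9 pericyte markers, 2 rose (*Mcam* and *Ndufa4l2*), 1 fell (*Vtn*), and the summed level was 352 to 593 CPM in the glands and 290 to 407 CPM in the tumors. *Rgs5*, a defining pericyte marker, was at 123 ± 53.2 and 89.4 ± 19.9 CPM (log2 fold change -0.41, limma adjusted p = 0.296), while *Ndufa4l2* was at 0 in M11640 and *Vtn* at 0 in T11640. By mouse, the pericyte sums were 352, 593 and 410 CPM in the glands and 290, 346 and 407 CPM in the tumors, with ranges that overlapped. The sums of M9232 and T9232 were thus nearly equal, and the tumor was clearly lower only where the gland held skeletal muscle transcripts. Of the 9 markers, 3 were higher and 2 lower in every tumor than in every gland. For smooth muscle, 3 of 6 markers fell (*Myh11*, *Lmod1* and *Des*), with sums of 285 to 512 CPM in the glands and 163 to 207 CPM in the tumors. *Des* was highest in the glands with skeletal muscle transcripts (106 CPM in M11035, 32.4 CPM in M11640 and 7.93 CPM in M9232). *Acta2* (102 ± 68.2 and 119 ± 18.8 CPM) and *Tagln* (17.2 ± 4.53 and 30.2 ± 2.87 CPM) were the 2 with a log2 fold change above 0, and neither was called.

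The remaining cell types were examined in the same way, against the same shares of all genes (14.5% called higher and 13.7% lower). Of 6 epithelial markers, 5 rose, with sums of 209 to 464 CPM in the glands and 1954 to 2533 CPM in the tumors. In the tumors, *Krt5* (913, 989 and 1060 CPM) and *Krt14* (440, 686 and 629 CPM) made up most of the sum. The marker not called was *Epcam*, at 105, 122 and 227 CPM in the glands and 194, 225 and 213 CPM in the tumors (limma adjusted p = 0.124). All 9 adipocyte markers fell, from sums of 3482 to 6716 CPM to 159 to 215 CPM. Endothelial markers summed to 505 to 685 CPM in the glands and 259 to 380 CPM in the tumors, and 3 of 10 fell. Of 6 macrophage markers, 1 fell, with sums of 1042 to 3775 CPM in the glands and 1078 to 2295 CPM in the tumors. Lymphocyte markers, all 5 of which fell, summed to 181 to 456 CPM in the glands and 11 to 15.7 CPM in the tumors. Of the 4 skeletal muscle markers, 0 were called by limma, and 2 were lower in the tumors at an unadjusted p under 0.05. The parts of these cell types in the levels of *Pdgfa*, *Pdgfrb* and the other PDGF genes were not tested.

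**Figure D5:**
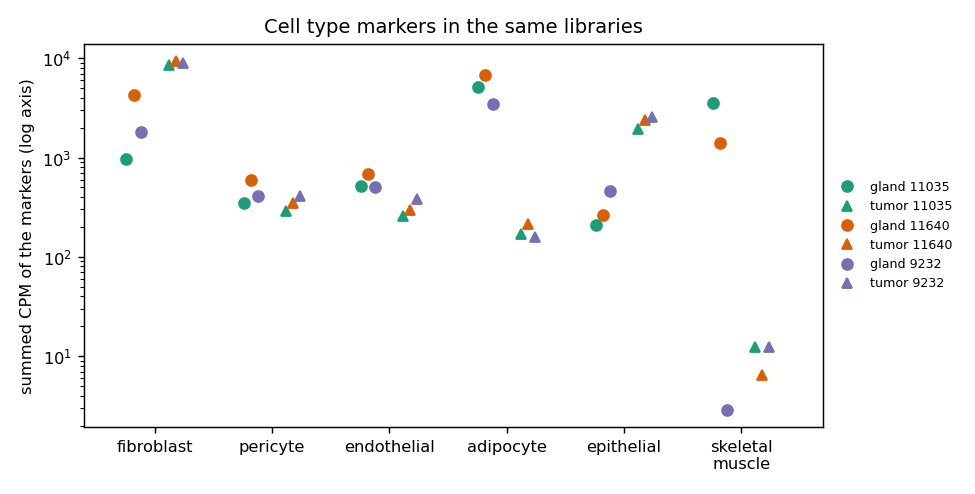
Summed CPM (y axis, log scale) of 6 marker lists in each library, with circles for glands and triangles for tumors, colored by mouse. Fibroblast and epithelial sums were higher and adipocyte and endothelial sums lower in every tumor than in every gland, pericyte sums overlapped, and skeletal muscle stood out in M11035 (3549 CPM) and M11640 (1384 CPM). The fibroblast sums of the tumors consisted mostly of the collagen genes *Col1a1*, *Col1a2* and *Col3a1*, and the epithelial sums mostly of *Krt5* and *Krt14*.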

How the data were processed

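Total RNA of 3 mammary tumors and the 3 adjacent normal glands of the same BK5.ATF3 mice was converted to libraries with the Ovation RNA-Seq System V2. The authors aligned read pairs with TopHat to the mm9 genome, assigned fragments to RefSeq genes by HTSeq and removed genes with under 10 fragments in all. The deposited expression signal is CPM on the effective library size of edgeR. Per the submitters' processing notes, TopHat2 was version 2.0.3 and edgeR 3.6.1. All values of each library were whole multiples of 1 step (100%, tolerance 0.01 step), so fragments could be recovered, and columns summed to 952151 to 1041166 CPM.

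Libraries were grouped by their labels. Log2(CPM + 0.5) was tested with limma 3.58.1 (R 4.3.3, mean-variance trend) over 15280 genes without a mouse term, since the methods name none. The planned test assumed CPM, and as the columns have unequal sums, a signal unit was assigned, for which the test is the same. The libraries of a mouse are paired by animal (r of their deviations 0.107, 0.151 and 0.0168 over 14712 genes), and the replicate block was an alternative, as were other pseudocounts, a filter, plain library totals, edgeR 4.0.16 and DESeq2 1.42.0 on recovered fragments and leaving out each library. Leaving out both glands with muscle transcripts was chosen after seeing the data. Scripts were tested on simulated data. Intervals of fragments cover counting error only. Exact permutation tests were two-sided. No libraries were duplicates (lowest chi-square per degree of freedom 13).

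The members and lists were chosen with earlier results of these data known. Named genes are the 6 members, the 2 largest rises and falls among the called genes of each of 5 lists, and the 3 nearest profiles of each member, and others are said to be picked with values known. Some named items are not reported here. Markers shown without that remark belong to the fixed cell type lists. Gene positions are from GENCODE vM1 (mm9) and promoters from RefSeq (GRCm38.p6).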

Additional observations from a re-analysis of the deposited data

How the results depend on the processing

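*Pdgfa* and *Pdgfrb* were called under each of 14 other settings and without both glands that held muscle transcripts, with log2 fold changes of 1.57 to 1.94 and 1.46 to 1.77. *Pdgfb* was called under none (0.439 to 1.19, adjusted p 0.0503 to 0.276). With the replicate block in limma, *Pdgfa* had an adjusted p of 0.00102, *Pdgfrb* 0.000899 and *Pdgfb* 0.0503, and the block changed no call of the 6 genes. Without both glands with muscle transcripts, *Pdgfc* was at -0.167 and *Pdgfd* at 0.0872, the processing genes called lower were 0, the early response genes called higher 3 and the relatives called lower 4. When 1 library was left out, *Pdgfc* ranged from -0.0912 to 0.502 (below 0 without M11035), *Pdgfd* from -0.319 to 0.308 (above 0 without M11640 and, at 0.0888, without T11035), *Pdgfra* from -0.537 to 0.0149 (above 0 without M11640) and the log2 ratio of *Pdgfc* to *Pdgfd* from -0.0213 (without T11035) to 0.63. The same left 5 to 8 processing genes higher and 0 to 1 lower, and 0 to 1 signaling genes higher. Attenuators called higher were then 2 to 4, early response genes 3 to 7 and relatives 1 to 2. The relatives called higher were 2 with a pseudocount of 0.1, with edgeR, with edgeR and the replicate block and with DESeq2. The cause of these changes was not tested, beyond the fewer libraries where some were left out. Depth limits *Pdgfb* most, with 9 to 71 fragments per library, and with 3 mice the exact tests of the ratios cannot pass 0.05.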

Other observations

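*Pdgfrl*, which encodes a secreted protein that resembles the extracellular part of the PDGF receptors, is not one of the 6 genes and was picked after its values were seen. It was at 1.63, 4.96 and 2.60 CPM in the glands and at 22.7, 30.5 and 31.5 CPM in the tumors. Every tumor was above every gland, and the mean rose from 3.06 ± 1.71 to 28.2 ± 4.81 CPM (SD, n = 3), a log2 fold change of 3.11 (SE 0.34, limma adjusted p = 0.000185).

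Platelets, which gave PDGF its name, and Schwann cells, in which PDGF signaling is also known, were covered by marker lists. Of all genes, limma called 14.5% higher and 13.7% lower. Of 4 platelet markers (*Gp9* and *Treml1* were not matched), 0 were called in either direction by limma (1 was lower at an unadjusted p under 0.05), with sums of 20.4 to 28.7 CPM in the glands and 11.9 to 28.8 CPM in the tumors. Of 5 Schwann cell markers, 3 fell, with sums of 57.2 to 80.1 CPM in the glands and 21.6 to 49.0 CPM in the tumors.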
